A study of Homo sapiens with 3 samples.

Results

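The genes described here are 51 protein-coding genes of DNA repair, chosen by name for their roles in excision, mismatch, break and crosslink repair and looked up among 20037 protein-coding genes. The cells were H1299, an established human lung cancer line that the labels call lung adenocarcinoma cells and that is known as a p53-null line. No treatment or genetic change is named for any library. The 3 libraries of the series were made by CUT&RUN, in which a nuclease tethered to a bound antibody cuts out nearby DNA for sequencing. They were made with antibodies against the transcription factor SP1 and against histone H3 acetylated at lysine 27 (H3K27ac), and with an IgG as negative control. The IgG library was not analysed here. With 1 library per antibody there was no replicate and no test, so nothing below measures the spread between cultures.

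SP1 is a zinc-finger factor that binds GC boxes, short GC-rich elements common in promoters of housekeeping genes. H3K27ac marks active promoters and enhancers. DNA repair genes are mostly expressed in all dividing cells. Excision repair removes damaged bases or stretches of a strand, mismatch repair corrects copying errors, end joining and homologous recombination mend broken DNA, the checkpoint kinases signal damage, the Fanconi anaemia proteins handle crosslinks between strands, and translesion polymerases copy past damage.

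The data were called summits, single bases that each carry a score. It is −log10 of either a p or a q-value, and no file names the one used. A summit is called at a gene end where it lies within 1000 bases of the first or the last base of a gene's RefSeq span. There were 5570 SP1 summits (median score 6.17) and 3201 H3K27ac summits (median 5.01). Read depth is unknown, since the files hold no read counts. A gene without a summit can therefore be below the calling threshold and need not lack the factor or the mark. Of 10 marker genes of lung, epithelium, mesenchyme, blood and liver, NAPSA alone had a summit at an end, of SP1. Inside the span, NAPSA and EPCAM had an SP1 summit and the blood marker PTPRC an H3K27ac summit. Summits do not measure RNA, so this is no check of the cell type.

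SP1 summits were found at the ends of 20 of the 51 repair genes, or 39.2% (95% Wilson interval 27 to 52.9, counting error only). Over all protein-coding genes the share was 13.7%. H3K27ac was found at the end of 1 member, REV3L, or 1.96% (0.347 to 10.3), against 0.848% of all genes (170 of 20037). So few gene ends of any kind had an H3K27ac summit that its absence at a member's end says little about that gene. The members held 23 SP1 summits at ends, because MSH3, MUTYH and CHEK2 had 2 each. For all 20 genes the summit lay at the 5′ end, as it did for 95.3% of all genes with an SP1 summit at an end and a known strand. The 24 members with no summit of either library at an end or inside the span were APEX1, ATR, BRCA2, DDB1, ERCC3, ERCC5, ERCC8, FANCD2, FANCI, LIG3, LIG4, MLH3, NBN, PALB2, PARP1, PARP2, PMS2, POLB, RAD50, RAD51D, XPA, XRCC1, XRCC2 and XRCC3.

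The promoter sequences below belong to 7 of the 8 members with the highest SP1 scores at an end and to XRCC2, a recombination gene with no summit, shown for contrast. Each holds the 250 bases before a RefSeq start (GRCh38.p14), with every GC box core in capitals. The core is GGGCGG, searched on both strands, so that CCGCCC is the same element on the other strand. Overlapping matches run together. ERCC1 is shown at its upstream start and at an internal start, because its summits lay near both. The windows were chr19:45451548-45451797 and chr19:45423529-45423778 (both minus strand) for ERCC1, chr11:125625974-125626223 (plus strand) for CHEK1, chr2:99490018-99490267 (minus strand) for REV1, chr17:43170328-43170577 (minus strand) for BRCA1, chr3:9749702-9749951 (plus strand) for OGG1, chr6:111483712-111483961 (minus strand) for REV3L, chr11:108222817-108223066 (plus strand) for ATM and chr7:152676142-152676391 (minus strand) for XRCC2.
ERCC1, upstream start: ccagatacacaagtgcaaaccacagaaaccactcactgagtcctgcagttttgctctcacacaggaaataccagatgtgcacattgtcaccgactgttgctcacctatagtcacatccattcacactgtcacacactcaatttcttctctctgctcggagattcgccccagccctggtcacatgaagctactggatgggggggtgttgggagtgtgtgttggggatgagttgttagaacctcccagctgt
ERCC1, internal start: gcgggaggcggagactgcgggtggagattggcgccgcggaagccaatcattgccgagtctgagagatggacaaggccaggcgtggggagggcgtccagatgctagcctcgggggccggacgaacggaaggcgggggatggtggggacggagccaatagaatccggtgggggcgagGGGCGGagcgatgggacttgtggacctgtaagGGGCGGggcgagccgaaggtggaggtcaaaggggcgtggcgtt
CHEK1: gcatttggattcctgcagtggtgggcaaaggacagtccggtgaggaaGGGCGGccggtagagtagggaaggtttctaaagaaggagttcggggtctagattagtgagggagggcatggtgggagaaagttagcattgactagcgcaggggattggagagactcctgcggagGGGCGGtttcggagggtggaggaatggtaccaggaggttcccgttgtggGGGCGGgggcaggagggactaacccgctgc
REV1: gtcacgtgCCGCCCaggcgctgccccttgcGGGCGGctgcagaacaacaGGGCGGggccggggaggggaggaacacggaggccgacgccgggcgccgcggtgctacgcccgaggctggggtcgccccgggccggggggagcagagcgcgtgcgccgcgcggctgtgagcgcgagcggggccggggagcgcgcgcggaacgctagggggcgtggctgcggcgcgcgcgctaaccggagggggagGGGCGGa
BRCA1: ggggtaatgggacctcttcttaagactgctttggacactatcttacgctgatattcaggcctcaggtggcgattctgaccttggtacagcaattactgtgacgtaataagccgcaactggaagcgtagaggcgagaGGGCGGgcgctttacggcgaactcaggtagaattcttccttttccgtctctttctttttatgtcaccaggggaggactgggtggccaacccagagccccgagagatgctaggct
OGG1: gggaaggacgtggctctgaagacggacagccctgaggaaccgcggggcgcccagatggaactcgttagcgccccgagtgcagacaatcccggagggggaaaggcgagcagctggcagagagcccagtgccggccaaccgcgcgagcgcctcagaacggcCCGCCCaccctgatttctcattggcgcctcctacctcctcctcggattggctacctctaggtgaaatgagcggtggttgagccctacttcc
REV3L: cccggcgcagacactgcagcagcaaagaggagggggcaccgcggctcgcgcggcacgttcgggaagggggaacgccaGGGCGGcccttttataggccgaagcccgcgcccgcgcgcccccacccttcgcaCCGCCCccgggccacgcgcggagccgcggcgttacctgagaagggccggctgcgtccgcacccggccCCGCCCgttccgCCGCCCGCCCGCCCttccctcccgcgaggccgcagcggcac
ATM: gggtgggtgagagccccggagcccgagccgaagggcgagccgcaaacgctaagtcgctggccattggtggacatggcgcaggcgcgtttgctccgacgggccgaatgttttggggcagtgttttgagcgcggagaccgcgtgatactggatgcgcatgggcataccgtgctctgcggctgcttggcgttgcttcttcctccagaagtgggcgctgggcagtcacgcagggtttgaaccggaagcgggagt
XRCC2: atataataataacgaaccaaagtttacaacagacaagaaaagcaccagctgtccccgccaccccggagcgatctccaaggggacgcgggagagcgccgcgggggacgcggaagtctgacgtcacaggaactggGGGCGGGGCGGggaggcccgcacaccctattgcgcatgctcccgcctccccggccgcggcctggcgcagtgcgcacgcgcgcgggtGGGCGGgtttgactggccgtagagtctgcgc

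REV3L had 6 cores in its 250 bases, REV1 had 4, CHEK1 had 3, and BRCA1 and OGG1 had 1 each. The BRCA1 window is that of its outer start, and its other listed start, at 43125364, had no core. ATM and the upstream start of ERCC1 had none, and the internal start of ERCC1 printed here had 2. Another internal start of ERCC1, at 45423917 and nearer to the summit, had none. XRCC2, without a summit, had 3. No member without SP1 at an end had more in the matched window nearest the 5′ end of its span. FANCC, also without SP1 at an end, had 4 at another listed start, at 95317254. RefSeq windows of 300 bases, 250 before and 50 after the start, could be matched for 47 members. For each gene, only the window nearest the 5′ end of its span was used. In those windows 34 members had a core, or 72.3%, against 58.3% of all 15843 promoters matched to a protein-coding gene. The share was 75% of the 20 members with an SP1 summit at an end (15 genes) and 70.4% of the 27 without (19 genes). Over all genes these shares lay further apart, at 78.4% of 2292 genes and 54.9% of 13551. The GC content of the windows had a median of 63.2% in members with SP1 and 64.3% in members without.

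Among genes whose promoter held a core, an SP1 summit stood at an end of 15 of 34 members (44.1%), against 19.4% of all such genes. Among genes without a core in the window used, 5 of 13 members (38.5%) had such a summit, against 7.5% of all. The 5 were ERCC1, ATM, MUTYH, DDB2 and RAD52. Other listed starts of ERCC1, MUTYH and DDB2 did have cores. There were 2 at 45423528 (ERCC1), 1 each at 45339970 and 45340120 (MUTYH) and 3 at 47214974 (DDB2). ATM and RAD52 had none at their listed starts. The summits themselves mostly lay outside the windows. Only 5 of the 23, at CHEK1, ATM, FANCG, FANCA and MUTYH, lay inside a listed promoter window, so the letters under the other summits were not read.

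**Figure D1:**
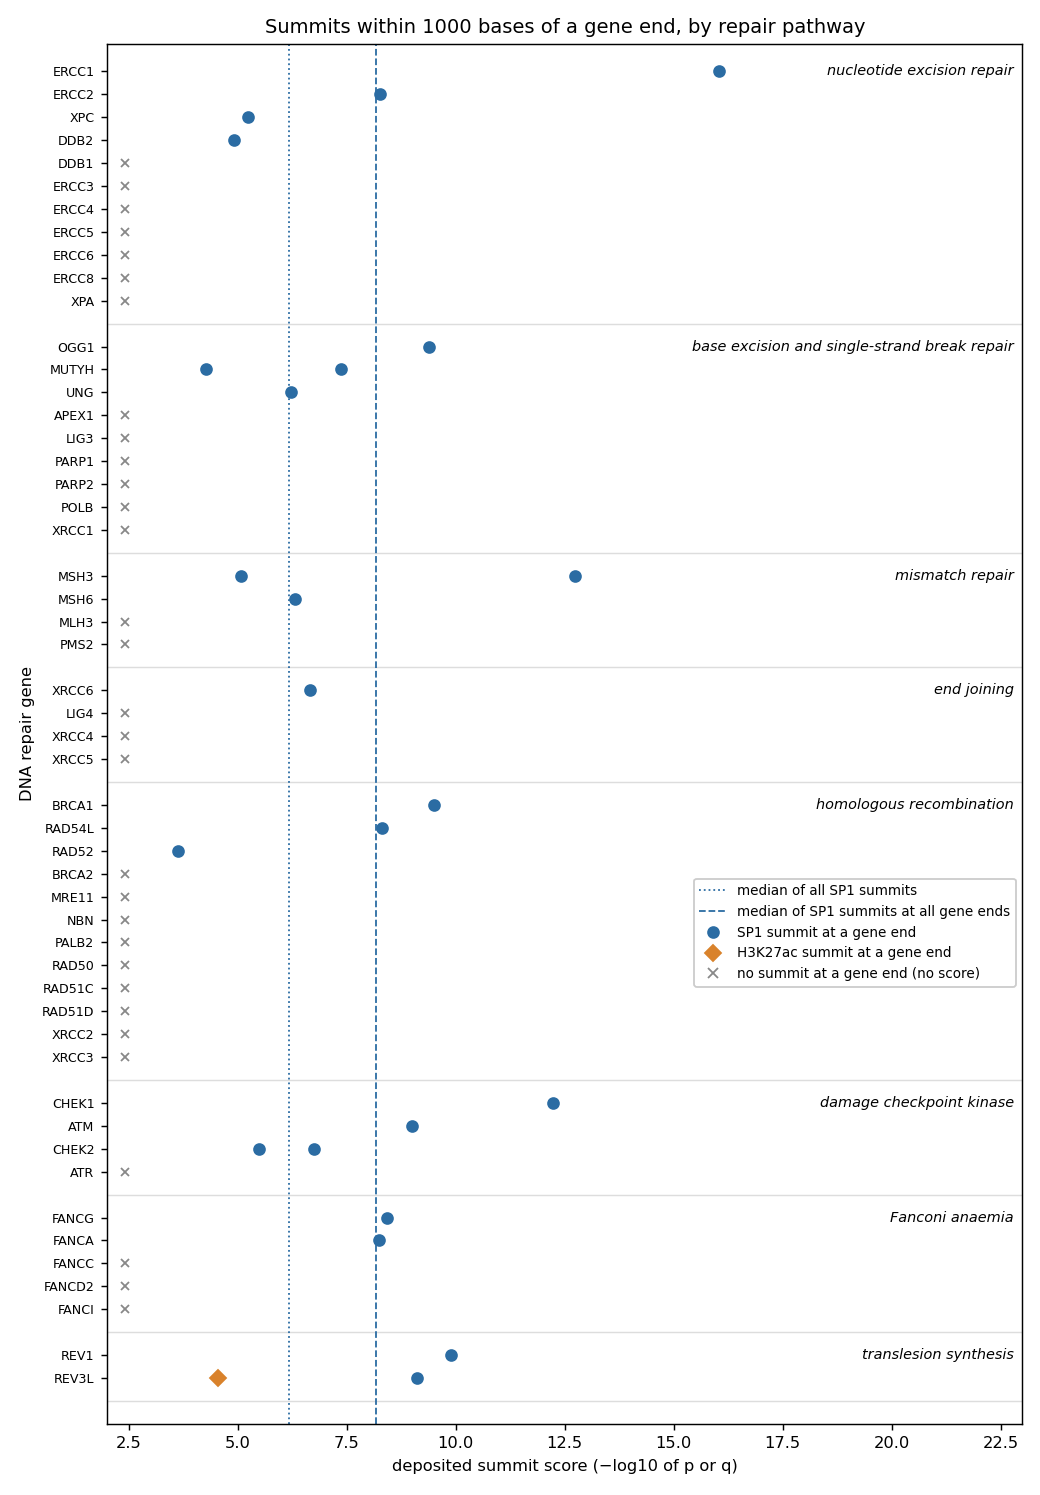
Score of each summit within 1000 bases of a gene end (x axis, −log10 of p or q) for the 51 repair genes (y axis), grouped by pathway. Blue circles are SP1 summits, the orange diamond is the H3K27ac summit of REV3L, and crosses mark genes with no summit at an end, at a position that is not a score. ERCC1, MSH3 and CHEK1 have SP1 summits above 12, and most others lie between the dotted median of all SP1 summits (6.17) and 10.

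Nucleotide excision repair cuts out a damaged stretch of a strand, and 4 of its 11 genes had SP1 at an end. ERCC1, part of the nuclease that cuts 5′ of the damage, had the highest score at a member's end, 16.0, at 45450664 on chromosome 19, 883 bases inside the gene from its upstream start. ERCC2, a helicase of the TFIIH complex, had a score of 8.26 at 45370876 on the same chromosome, 303 bases upstream of its start. XPC, which recognises damage across the genome, had 5.24 at 14177859 on chromosome 3, 742 bases downstream. DDB2, which binds ultraviolet damage, had 4.92 at 47214688 on chromosome 11, 234 bases downstream. The first 2 genes thus stood above the median of all SP1 summits and the other 2 below it. No SP1 summit was called at the ends of ERCC3, ERCC4, ERCC5, ERCC6, ERCC8, XPA or DDB1.

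ERCC1 and ERCC2 are close on chromosome 19, and the stretch from ERCC2 to just beyond ERCC1 held 7 SP1 summits and no H3K27ac summit. Besides the summit at its end, ERCC1 had summits of 18.0 at 45423780 and 13.5 at 45443106 inside its span. The first was 137 bases downstream of an internal RefSeq start of ERCC1, at 45423917. It was 252 bases upstream of a second internal start, at 45423528, whose window is the one printed above and ends just short of the summit. Its score ranked 307 of 5570. A summit of 28.7 at 45405346, ranked 95, lay 1988 bases beyond the other end of ERCC1 and 1015 bases from an end of PPP1R13L, so it fell just outside the window of both genes. Of the 23 summits at member ends, that of ERCC1 alone lay in a deposited SP1 region (4.35%), against 2.73% of 2457 summits at the ends of all genes. This region, of 13385 bases, ranked 2 of 2356, and joined 2 peaks.

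Base excision and single-strand break repair had SP1 at the ends of 3 of 9 genes, all of them DNA glycosylases, which remove single damaged bases. OGG1, which removes oxidised guanine, scored 9.37 at 9750099 on chromosome 3, 147 bases downstream of its start. MUTYH, which removes adenine paired with oxidised guanine, had summits of 7.37 and 4.26 at 45340226 and 45339701 on chromosome 1, which is 214 and 739 bases inside the gene from its outermost start. UNG, which removes uracil, scored 6.21 at 109098276 on chromosome 12, 679 bases downstream of its first start and 104 bases downstream of its second. The genes of the later steps, the nuclease APEX1, the polymerase POLB, the ligase LIG3 and its scaffold XRCC1, had no summit at an end. Neither did PARP1 or PARP2, which sense strand breaks. Among other repair genes looked up for comparison, the glycosylase genes TDG and NEIL2 had SP1 at an end. SMUG1, MBD4, NEIL1, NEIL3, NTHL1 and MPG, also glycosylase genes, did not, while the ligase gene LIG1 did.

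In mismatch repair, SP1 was found at the ends of MSH3 and MSH6 and not at MLH3 or PMS2. MSH3 and MSH6 are the variable subunits of the complexes that recognise mismatches, while MLH3 and PMS2 act downstream of recognition. MSH3 had summits of 12.7 and 5.07 at 80654810 and 80655286 on chromosome 5, 158 and 634 bases inside the gene. MSH6 scored 6.31 at 47783277 on chromosome 2, 132 bases downstream of its start.

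In end joining, 1 of 4 genes had SP1 at an end. This was XRCC6, the Ku70 subunit that binds broken ends, with 6.66 at 41621433 on chromosome 22, 138 bases downstream of its start. XRCC5, which encodes its partner Ku80, and XRCC4 and LIG4, which join the ends, had none. In homologous recombination the count was 3 of 12, led by BRCA1, which directs break ends into recombination, with a score of 9.49. RAD54L, a motor protein that aids strand invasion, scored 8.31 at 46247209 on chromosome 1, 479 bases upstream of the gene. RAD52, a strand-annealing protein, scored 3.63 at 990571 on chromosome 12, 551 bases inside it, the lowest score at a member's end. RAD54L had the most GC box cores of any member, 7 in its 300 bases, tied with REV3L.

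The BRCA1, RAD52 and MRE11 calls depend on which start is taken. The RefSeq span of BRCA1 reaches an outer start at 43170327, whose window is the one printed above. The summit at 43170906 on chromosome 17 was 579 bases beyond it and 497 bases from an end of the neighbouring gene NBR1. It was also 58 and 503 bases from ends of the non-coding RNA genes LOC124900391 and LOC101929767, and 952 bases from the pseudogene BRCA1P1. From the other listed start of BRCA1, at 43125364, the nearest SP1 summit was 45.5 kb away. Likewise, the nearest was 40.9 kb from the other listed start of RAD52, at 949694. MRE11, a nuclease of the complex that first processes breaks, was not counted. Its span ends 18.7 kb from a summit of 9.73 at 94493686 on chromosome 11, but this summit was 158 bases downstream of its listed start. Counted at any listed RefSeq start in place of span ends, an alternative chosen after seeing the data, 21 members had SP1, against 14.9% of all genes with a listed start. The other 2 proteins of the MRE11 complex, RAD50 and NBN, had no summit, and nor did BRCA2 and PALB2, which act together in homologous recombination.

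Of the 4 checkpoint kinase genes, 3 had SP1 at an end. CHEK1, which stops the cycle when replication stalls, scored 12.2 at 125626117 on chromosome 11, 107 bases upstream of its nearest listed start. Its distance from the end of the RefSeq span was 981 bases, the longest counted. ATM, the kinase that answers double-strand breaks, scored 8.99 at 108223219 on chromosome 11, 152 bases inside the gene and 581 bases from an end of NPAT. CHEK2, a kinase that ATM activates, had summits of 6.75 and 5.49 at 28742182 and 28742695 on chromosome 22, 348 and 861 bases beyond its end, the stronger 150 bases from an end of HSCB. ATR, which acts on single-stranded DNA and activates CHEK1, had none.

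Among crosslink repair genes, FANCG and FANCA, both of the Fanconi anaemia core complex, had SP1 at an end. FANCG scored 8.43 at 35079898 on chromosome 9, 44 bases inside the gene, the shortest distance of any member. FANCA scored 8.24 at 89816843 on chromosome 16, 196 bases upstream. FANCC, of the same complex, and FANCD2 and FANCI, the pair that the complex modifies with ubiquitin, had none. Both translesion genes had SP1. REV1, a scaffold and polymerase of this pathway, scored 9.90 at 99490439 on chromosome 2, 237 bases upstream of its span. REV3L, the catalytic subunit of polymerase zeta, scored 9.11 at 111483992 on chromosome 6, 281 bases upstream. REV3L was the only member with both summits at an end. Its H3K27ac summit scored 4.55, was 883 bases upstream and lay 602 bases from the SP1 summit.

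**Figure D2:**
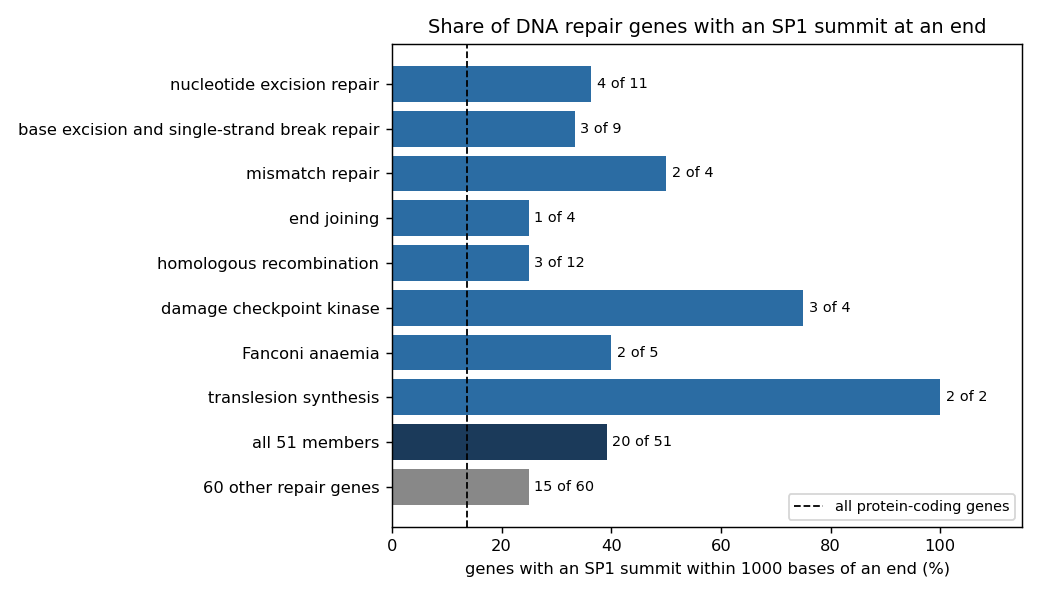
Percentage of genes with an SP1 summit within 1000 bases of an end (x axis) for each repair pathway (y axis), with counts beside the bars, the 51 genes together and 60 other repair genes. The dashed line is the share over all protein-coding genes, 13.7%, and each pathway lies above it, though most bars rest on few genes.

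Scores at the members' ends had nearly the same median as those at gene ends in general, and a lower upper quartile. The 23 summits ranged from 3.63 to 16.0 with a median of 8.24, beside a median of 8.17 over the 2457 SP1 summits at all gene ends. The upper quartiles were 9.24 and 11.7, and the highest score at any gene end was 61.5. Of the 20 genes, 17 had a best score above the median of the whole SP1 list, and 7 had one above its upper quartile of 9.04. These 7 were ERCC1, MSH3, CHEK1, REV1, BRCA1, OGG1 and REV3L. With summits above that quartile only, 6.21% of all genes had SP1 at an end. The median score was thus close to that of gene ends in general, while the share of genes with a summit was not.

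The summit was often a short way from a start. From the 5′ end of the RefSeq span, 13 of the 20 genes had their best summit downstream (65.0%) and 7 upstream. For all genes with SP1 at the 5′ end, 44.1% had it downstream. This depends on the reference point. From the nearest listed start, the best summits of CHEK1, ATM, MUTYH and RAD52 were upstream instead, at 107, 106, 106 and 530 bases. None of the 7 moved downstream, and for all genes this was not counted. From the nearest of all listed starts, the closest SP1 summit was 100 to 200 bases away in 11 of 21 members (52.4%) and in 28.3% of 2361 genes. It was under 100 bases away in 1 member, FANCG (4.76%), and in 13.6% of all genes. Median distances were 158 and 238 bases. These distance limits were chosen after the values were seen, and several listed starts in a gene make a short distance more likely.

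**Figure D3:**
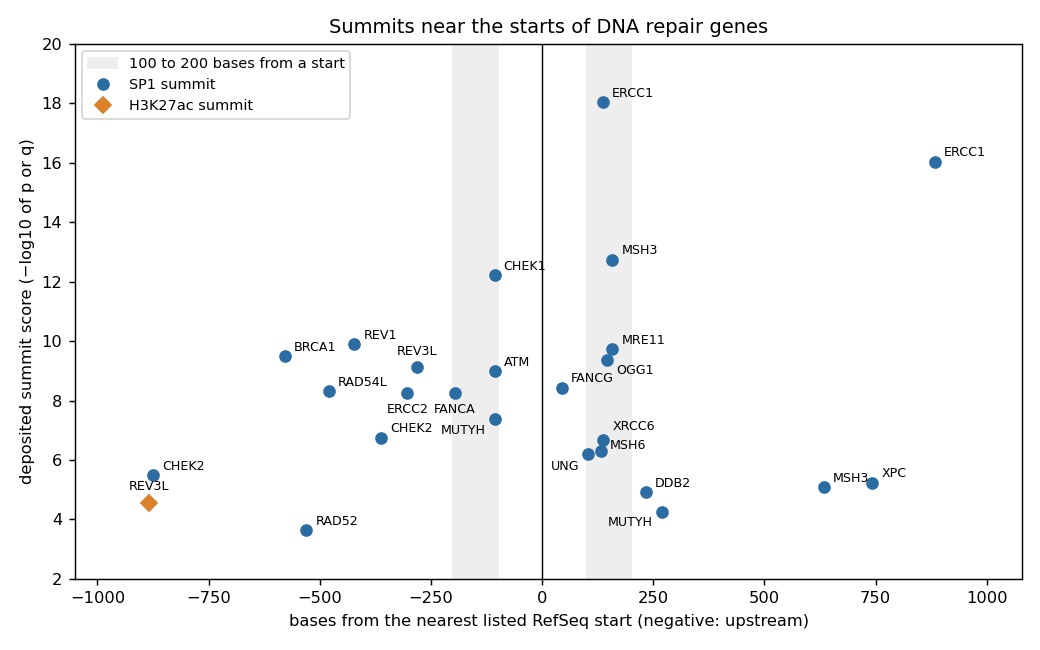
Score of each summit (y axis, −log10 of p or q) against its distance from the nearest listed RefSeq start of the gene (x axis, bases, negative upstream), for SP1 (circles) and H3K27ac (diamond). Grey bands mark 100 to 200 bases on either side of a start. They hold SP1 summits of CHEK1, ATM, MUTYH and FANCA upstream and of ERCC1, MSH3, MRE11, OGG1, XRCC6, MSH6 and UNG downstream.

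Several summits could not be assigned to the repair gene alone. For 8 of the 20 genes (40.0%) the SP1 summit also lay at an end of another protein-coding gene, much as for all genes with SP1 at an end (39.4%). Among these were BRCA1 with NBR1, ATM with NPAT, MUTYH with TOE1, CHEK2 with HSCB, XRCC6 with DESI1, XPC with LSM3 and RAD52 with ERC1. Another protein-coding gene had an end within 1000 bases of an end of 28 of the 51 members (54.9%), against 28.5% of all genes. Among genes with a close neighbour 46.4% of the members had SP1 at an end, against 23.9% of all such genes. Among genes without one the shares were 30.4% (7 of 23) and 9.68%. Chromosome 19, which is dense in SP1 summits, held 3 members, and 18 of the 48 elsewhere had SP1 (37.5%), against 12.5% of all genes elsewhere.

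Away from the ends, summits inside the genes were few. SP1 summits over 1000 bases from both ends were called in 5 members (9.80%, against 6.93% of all genes), and the 6 summits scored from 3.18 to 18.0. They lay in ERCC1, described above, in MRE11, and in XRCC4 (5.56), RAD51C (4.39) and FANCC (3.18), the last 3 at 32.3 kb, 4.34 kb and 48.4 kb from the 5′ end. RAD51C encodes a homologous recombination factor. The XRCC4, RAD51C and FANCC summits each lay in an SP1 region, at ranks 1649, 1945 and 2110 of 2356. Counting summits near the ends too, 17 members (33.3%) had an SP1 summit inside the span, against 12.7% of all genes.

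H3K27ac summits inside the span were found in 6 members (11.8%, against 5.66% of all genes). Each had 1 summit, over 1000 bases from both ends, as had 5.26% of all genes. FANCC had the highest score, 6.93, at 159.7 kb from its 5′ end. XRCC4 had 5.99 at 224.9 kb. ERCC4, which encodes the nuclease partner of ERCC1, had 5.47 at 28.5 kb. ERCC6, which acts when transcription stalls at damage, had 3.81 at 21.6 kb, XRCC5 had 3.79, and REV3L had 3.22 at 60048 bases. The last 3 lay below the median of the H3K27ac list. ERCC8, a partner of ERCC6, had an H3K27ac summit of 3.44 at 60946133 on chromosome 5, 1063 bases beyond its 5′ end, just outside the window.

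Each of the 6 H3K27ac summits lay in an H3K27ac region, at ranks from 362 (XRCC5) to 1974 (XRCC4) of 2710. The best-placed was thus within the first 13.4% of the ranking. Each of these 6 regions was made of 1 peak and held 1 summit. The share of members overlapping an H3K27ac region, 11.8% against 4.74% of all genes, thus counts the same 6 genes again. For SP1 regions the share was 7.84% (4 genes) against 4.51%. Few SP1 summits at gene ends lay in a region, as given above, so this share says little about the ends. Gene length goes with such counts. The 6 genes with H3K27ac inside had a median span of 144.7 kb and the other 45 members one of 38.2 kb. Of members at least 50 kb long, a limit chosen after seeing the data, 5 of 21 had an H3K27ac summit inside, against 14.0% of 6269 genes of that length. Summits away from the ends were also counted per Mb of whole span. Members held 1.81 such H3K27ac summits against 1.01 over all genes, and 1.81 SP1 summits against 1.27, on 6 summits each. The nearest H3K27ac summit to an end was at a median of 200.1 kb for members and 320.3 kb for all genes.

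**Figure D4:**
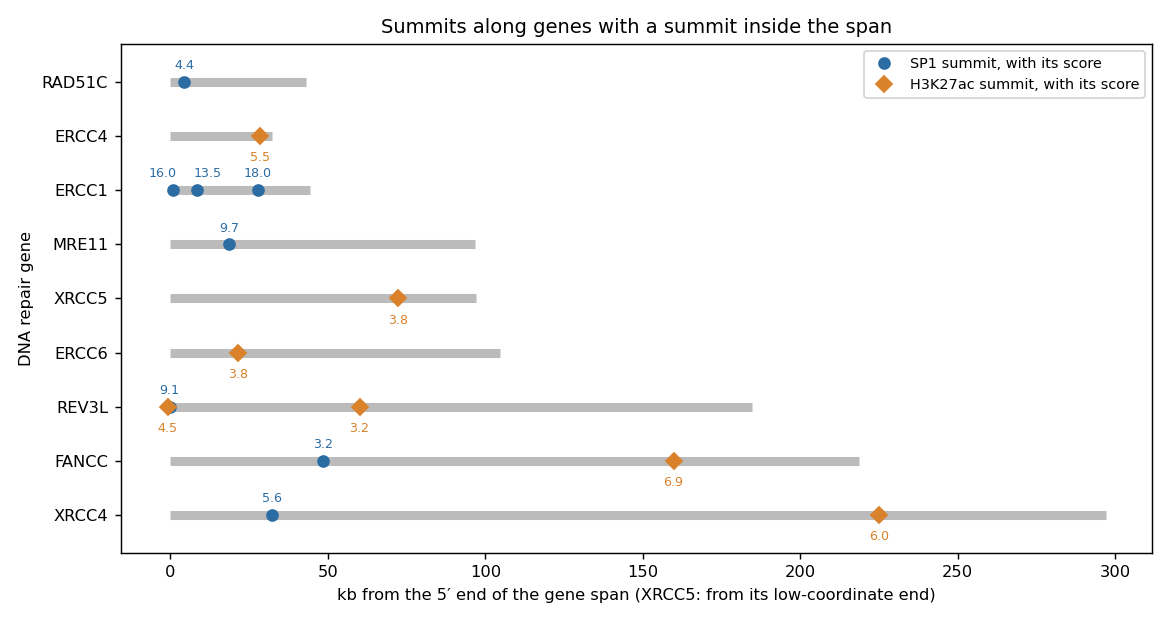
Spans of the 9 repair genes with a summit away from their ends (grey bars, kb from the 5′ end on the x axis, or from the low-coordinate end for XRCC5, whose strand was not used). Circles are SP1 and diamonds H3K27ac summits, with scores. SP1 summits lie in the first part of MRE11, RAD51C, FANCC and XRCC4, and the H3K27ac summits of FANCC, XRCC4 and ERCC4 lie in the far part.

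Other genes of the same pathways, 60 in a list made up for comparison, had SP1 at an end in 15 of 60 cases, or 25% (15.8 to 37.2). This lay between the share of the members and that of all genes, and its interval overlapped that of the members. Neither list was a random sample of genes, and whether the shares differ was not tested. Of 29 other excision repair genes 10 had a summit, and of 17 other break repair and checkpoint genes 5. None of 12 other crosslink and translesion genes had one, which allows a share of up to 24.2%, and none of 2 other mismatch repair genes. FANCM, one of the 12, had SP1 summits of 11.9 and 5.06 at 1587 and 1030 bases upstream of its 5′ end, just outside the window. LIG1, the ligase that seals replicated and excised strands, scored highest with 29.3 at 233 bases inside the gene. NHEJ1, an end joining factor, scored 17.3 and TDP1, which releases trapped topoisomerase, 11.9. The glycosylase gene NEIL2 scored 11.1 and TDG 7.07. CCNH and CDK7, subunits of the TFIIH kinase, scored 9.18 and 7.08, GTF2H4 and GTF2H5, of the TFIIH core, 6.29 and 6.16. The GTF2H4 summit was 543 bases beyond its 3′ end, 6442 bases from its start and 411 bases from an end of VARS2. The other TFIIH genes GTF2H1, GTF2H2, GTF2H3 and MNAT1, and the member ERCC3, had no SP1 summit at an end. The BRCA1 partner genes BARD1 and BRIP1 scored 8.98 and 6.91, and RAD54B 6.57. H3K27ac was at the ends of 2 of the 60, MNAT1 and RAD51B.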

How the data were processed

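CUT&RUN of H1299 cells gave 1 library each for SP1, H3K27ac and IgG. The 4 deposited files of the first 2 were used. Judged from its values, the deposited score of a summit is −log10 of a p- or q-value, and the lowest scores are 3.00 (SP1) and 3.02 (H3K27ac). The authors deposited the rank of each region as a whole number and not the signal ranked on. Per the submitters' processing notes the build is hg38 and the tools include deepTools 3.4.1 and cutadapt 2.5, without their roles. Which aligner, caller and control served is not given in the sources used here. A more permissive threshold or greater depth would add summits.

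Genes and promoters came from RefSeq tables of GRCh38.p14. The table gives 20037 protein-coding genes on 24 chromosomes. All 51 members and all 60 other repair genes matched by symbol, and 47 members had a promoter entry, which also gave strand. Positions are 1-based. Counts were made in Python 3.11.15 and tested on simulated data with summits planted at known genes, all of which were recovered. Members, lists and comparisons were chosen with earlier results of these data known. Genes are named where they had a summit at an end, inside the span or within 2500 bases, and the rest in the count without one. A few items are not reported here. Sequences shown are those of other highest-scoring members, plus XRCC2 and an internal start of ERCC1, chosen after their values were seen. No p-value was computed. Wilson intervals (95%) treat genes as independent. Alternatives covered the window, the score, the 5′ end, region overlap and rank, and the GC box, and after seeing the data also listed starts, chromosome 19 and the distance from gene ends.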

Additional observations from a re-analysis of the deposited data

How the results depend on the processing

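No paired analysis was possible because each antibody had a single library. Of 40 alternative values, 24 stayed within 1.5 times of the reported count (for the median score, within its 95% interval) and 16 moved. The count of 20 members with SP1 at an end was 14 with a window of 500 bases (11.4% of all genes), 20 with 2500 bases (15.8%), 17 with summits above the median score (10.4%) and 7 with those above the upper quartile (6.21%), where the median score was 9.90. That last setting left 6 of the other repair genes. H3K27ac at an end was found for 0 members with 500 bases (0.404% of all genes), 2 with 2500 bases (1.49%), and 0 with summits above the median (0.409%) or the upper quartile (0.23%). Members with SP1 inside the span were 17 (12.7% of all genes), 11 (7.25%) and 5 (3.95%) with these 2 score limits, and 5 (6.93%) away from the ends. Those with H3K27ac inside were 6 (5.66%), and 3 (3.02%) and 2 (1.43%) with the score limits. With the better-ranked 50% of regions, 1 member (1.96%) overlapped an SP1 region, now below the share of all genes (2.28%), and 2 an H3K27ac region (2.32% of all genes). GGGGCGGGG was in 15 member promoters (22.1% of all promoters) and 2 or more GGGCGG in 19 (36.6%), where 1 or more was in 34. A narrower window, a higher score and a longer motif lower a count by construction. Counting 5′ ends only, 11 other repair genes had SP1, since 3 of those with a summit, NEIL2 and RAD54B among them, have no listed strand and the summit of GTF2H4 was at its 3′ end. The files hold no depth, so its limits cannot be stated.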

Other observations

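RAD51B, a homologous recombination gene that is not among the 51 genes, was chosen here after its values were seen. Its span of 863.3 kb on chromosome 14 held 8 H3K27ac summits away from the ends, where the 51 genes together held 6. This is 9.27 per Mb of span, beside 1.81 for the 51 genes and 1.01 over all protein-coding genes. In the same list POLK, with a single such summit in 99.2 kb, had 10.1 per Mb, and MNAT1, also with 1, had 4.25. The highest scored 11.2 and 10.6, at 68140274 and 68089268. A further H3K27ac summit of 5.27 lay 172 bases beyond the 3′ end. A single SP1 summit of 3.64 was called inside the gene, at 68125276, and none at an end. MNAT1, which encodes an assembly factor of the TFIIH kinase, was the only one of the 60 other repair genes with an H3K27ac summit at its 5′ end, with 5.64 at 254 bases inside the gene. It had no SP1 summit at an end, whereas its partners CDK7 and CCNH had SP1 and no H3K27ac there.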
